A study of Mus musculus with 8 samples.

Results

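Aminoacyl-tRNA synthetases, the enzymes that load each amino acid onto its transfer RNA (tRNA), were followed in mouse OT-I CD8+ T cells. The set was fixed by name: 36 of the 41730 features of the counts table carry the symbol of a cytosolic synthetase (20 genes) or of a mitochondrial synthetase (16 genes, marked by the suffix 2). OT-I cells carry a transgenic T cell receptor for the ovalbumin peptide SIINFEKL. In both groups they were grown with dendritic cells derived from bone marrow and then sorted. The sample titles describe them as T cells after cross-presentation by these dendritic cells. The control group received the solvent DMSO (4 libraries, replicates 1 to 4), and the other group received 2 µM RGX-104 (4 libraries, replicates 5 to 8), a compound that activates the liver X receptors, nuclear receptors for oxidised cholesterol. The question put to the sorted T cells is how the agonist in the co-culture alters their transcripts. The age of the mice and the length of the co-culture are not stated in the labels. Nor do they say whether each library had its own culture or mouse, so p-values measure only a spread between libraries that may be technical. The agonist was present for both cell types, so an effect on the T cells themselves and one through the dendritic cells cannot be told apart.

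A synthetase first activates its amino acid with ATP and then joins it to the matching tRNA, which carries it to the ribosome. Cytosol and mitochondria run separate sets of these enzymes, all encoded in the nucleus, while single genes for glycine (Gars) and lysine (Kars) serve both compartments. When charged tRNA runs short, uncharged tRNA activates the kinase GCN2 (gene Eif2ak4), which raises translation of the transcription factor ATF4. ATF4 in turn induces genes of amino acid uptake and synthesis, and several cytosolic synthetase genes are among its known targets.

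Libraries were made with a kit that reads transcript ends, so a count does not scale with transcript length and fold changes here compare the groups for the same gene. Levels of different genes are set side by side to show the counts behind an error, or as a ratio of 2 genes whose change between the groups is read. Sums over marker lists, with the part of Ccr7, and over each compartment are also given for both groups. Total counts were 13144704 to 15966972 per library. Levels are in CPM, counts scaled to a common library size with a correction for library composition (TMM). Of 12162 genes tested, 216 (1.78%) were lower and 108 (0.888%) higher with the agonist, taking an adjusted p under 0.05 in edgeR's quasi-likelihood test. The T cell label held in its markers: Cd8a, Cd8b1 and Cd3e were detected in every library, and the summed level of 7 CD8 T cell markers was 1084 to 1106 CPM in control and 1326 to 1370.0 CPM in RGX-104. Of these 7, Cd8a (log2 fold change 0.52) and Cd8b1 (0.39) were called higher and 0 lower. Cd28, also among the 7, was near the floor, with a mean of 0.90 CPM in control and 1.63 CPM in RGX-104. Its symbol is repeated with a number appended, so its level is uncertain. The dendritic cell list, which includes Ccr7, a receptor that T cells also make, summed to 519.99 to 578 and 514 to 616 CPM. Ccr7 supplied 465 of this in control and 493 in RGX-104. The 7 macrophage and monocyte markers summed to 38.4 to 45.1 and 43.0 to 51.4 CPM, the 4 B cell markers to 0.925 to 2.35 and 0.982 to 1.599 CPM with Cd79a at 0 in all libraries, and the 4 CD4 T cell markers to 4.86 to 6.14 and 3.28 to 5.84 CPM. Of 15 tested genes of these other lists, 0 were called by edgeR, limma-voom or DESeq2, beside 2.66% of all genes in edgeR. Before adjustment, 2 dendritic cell genes, Ccl22 and Fscn1, had a lower level at an edgeR p under 0.05. That is a share near the 13.8% of all genes with such a p in either direction. The part of these other cell types in the results was not tested.

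Transcripts of 8 cytosolic synthetases fell in RGX-104: those for cysteine (Cars), asparagine (Nars), serine (Sars), leucine (Lars), alanine (Aars), threonine (Tars), glycine (Gars) and glutamate with proline (Eprs). The falls were moderate, with log2 fold changes from -0.56 to -0.22, and in each of these genes every RGX-104 library lay below every control library, an order found for 4.32% of all genes tested. The other 10 tested cytosolic members and all 16 mitochondrial members were not called. Thus 8 of 18 tested cytosolic members were lower and 0 higher, beside 1.78% and 0.888% of all genes. The median log2 fold change was -0.08 over the tested cytosolic members, 0.05 over the mitochondrial members and 0.00 over all genes tested. The remaining 2 cytosolic members, for valine and tyrosine, could not be tested.

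Short stretches of promoter sequence are shown for the members that fell and had a matched promoter, and for Iars and Yars, which held a match. The reason is that ATF4 is known to bind, with a C/EBP partner, a composite element whose core reads TGATGCAA. RefSeq promoters on GRCm38.p6, 250 bases before to 50 after a transcript start, matched 27 of the 36 members. The letters TGATGCAA on either strand were found in 4 of 13 matched cytosolic members and 0 of 14 matched mitochondrial members, against 0.895% of all 32851 promoters. The looser pattern TGATGNAA, which includes every match of the first, was found in 5 of 13 and 0 of 14, against 3.97% of all. Sequences run 5′ to 3′ on the gene's own strand, capitals mark the match (TTGCATCA and TTTCATCA are matches read on the other strand), and positions count from +1 at the transcript start with -1 just before it.
Aars, chr8:111033704-111033763, + strand, match starting at -112: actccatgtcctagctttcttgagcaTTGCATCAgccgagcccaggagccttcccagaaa
Tars, chr15:11399659-11399718, - strand, match starting at -15: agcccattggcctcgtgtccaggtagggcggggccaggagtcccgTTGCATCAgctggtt
Gars, chr6:55037941-55038000, + strand, looser match starting at -30: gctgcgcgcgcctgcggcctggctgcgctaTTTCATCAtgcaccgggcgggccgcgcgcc
Iars, chr13:49682126-49682155, + strand, match starting at 8: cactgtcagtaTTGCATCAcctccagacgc
Yars, chr4:129189895-129189924, + strand, match starting at 4: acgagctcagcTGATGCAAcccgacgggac
Sars, chr3:108445260-108445319, - strand, no match in the promoter: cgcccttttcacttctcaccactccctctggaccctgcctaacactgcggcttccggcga
Eprs, chr1:185362984-185363043, + strand, no match in the promoter: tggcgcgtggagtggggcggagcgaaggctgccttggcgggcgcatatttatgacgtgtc

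The matches and the falls did not coincide gene by gene. Of the 5 members that fell and had a promoter in the table, Aars and Tars held TGATGCAA, Gars held the looser pattern, and Sars and Eprs held neither in this window. Cars, Nars and Lars, which also fell, had no matched promoter and are left out of this comparison. Among 7 matched cytosolic members that were not called, 1 held a match, the isoleucine enzyme Iars. Yars held one as well but could not be tested. Aars has a further looser match starting at 10. The transcript starts behind the Aars matches and the Eprs window lie inside the gene spans given below, downstream of the outer starts. Sequence before the outer start of Eprs was not searched. A match describes letters and does not show binding, and the absence of one says nothing of elements outside the window.

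Cars, which charges cysteine tRNA (chromosome 7, 143557230 to 143600090), had the lowest fold change of the set. It was at 139.9, 139, 135 and 131 CPM in control replicates 1 to 4 and at 95.5, 89.7, 91.9 and 90.8 CPM in RGX-104 replicates 5 to 8. The groups did not overlap, and the mean went from 136 ± 4.21 to 92.0 ± 2.53 CPM (SD, n = 4 per group). Its log2 fold change was -0.56 ± 0.06 (SE; edgeR adjusted p = 3.79e-06), a mean level 32.4% lower.

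The next largest falls were those of the asparagine and serine enzymes, whose amino acids cells can make themselves. Nars (chromosome 18, 64499655 to 64516515) was at 717, 748, 767 and 681 CPM in control and at 549.7, 522, 512 and 519.9 CPM in RGX-104. Its highest RGX-104 library lay well below its lowest control, and its log2 fold change was -0.47 ± 0.05 (edgeR adjusted p = 1.19e-06). Sars (chromosome 3, 108424864 to 108445259) was at 412, 410.0, 386 and 395 CPM in control and at 302, 289.7, 290.1 and 277 CPM in RGX-104. The groups were again apart, with a log2 fold change of -0.47 ± 0.05 (edgeR adjusted p = 1.95e-06), which lowered the mean by 27.7%.

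Lars, the leucine enzyme, is also known as a leucine sensor upstream of the growth kinase complex mTORC1 (chromosome 18, 42202298 to 42262237). It was at 479.8, 526, 476 and 457 CPM in control and at 381, 366, 362 and 351 CPM in RGX-104. The log2 fold change was -0.41 ± 0.05 (edgeR adjusted p = 2.66e-05). Aars, the alanine enzyme (chromosome 8, 111027778 to 111055569), was the most variable of the 8. It was at 165, 212, 191 and 189 CPM in control and at 151, 131, 151 and 153 CPM in RGX-104. Control replicate 1 and RGX-104 replicate 8 stood closest, and the groups did not overlap (log2 fold change -0.37 ± 0.07; edgeR adjusted p = 0.00392). Exons of Aars overlap those of Exosc6 over 1326 bp on the same strand in GENCODE M21, so reads of this pair may not be fully separated. Exosc6 itself had a log2 fold change of -0.03.

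Tars, the threonine enzyme (chromosome 15, 11383663 to 11399658), was at 381, 364, 369 and 348 CPM in control and at 296, 288, 301 and 279 CPM in RGX-104. Its groups were apart, and the log2 fold change was -0.33 ± 0.05 (edgeR adjusted p = 0.000309). Gars, which serves cytosol and mitochondria (chromosome 6, 55038001 to 55079504), was at 438, 425, 416 and 426 CPM in control and at 348, 337, 339 and 339 CPM in RGX-104. Its replicates were tight in both groups, with a log2 fold change of -0.32 ± 0.05 (edgeR adjusted p = 0.000143). Eprs, a fused enzyme that charges glutamate and proline tRNA (chromosome 1, 185361417 to 185428360), was at 959.5, 939, 926 and 928 CPM in control and at 827, 793, 803 and 805 CPM in RGX-104. This was the smallest of the 8 falls, 14.02% of the mean, and its log2 fold change was -0.22 ± 0.04 (edgeR adjusted p = 0.00248).

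**Figure D1:**
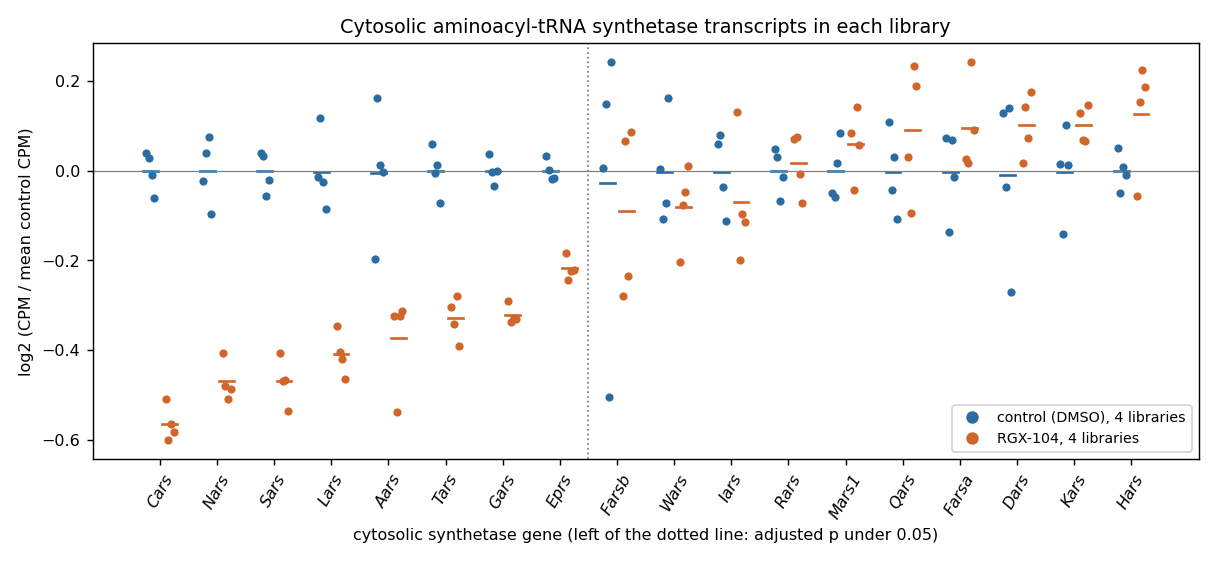
Level of each tested cytosolic synthetase gene in the 8 libraries, as log2 of CPM over the gene's mean control CPM; points are libraries (control blue, RGX-104 orange) and bars are group means. For the 8 genes left of the dotted line (adjusted p under 0.05) the groups do not overlap; for the 10 to the right they do.

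The 10 other tested cytosolic members had log2 fold changes of -0.08 to 0.13 and overlapping groups, with edgeR adjusted p from 0.385 upwards. Kars, the lysine enzyme, which like Gars serves both compartments, was at 362, 325, 384 and 361 CPM in control and at 392, 375, 375 and 396 CPM in RGX-104. Its log2 fold change was 0.10 ± 0.05, so the pair of dual-compartment genes had values of opposite sign. Rars, the arginine enzyme, was at 370.4, 366, 342 and 355 CPM in control and at 376, 378, 356 and 341 CPM in RGX-104 (log2 fold change 0.02 ± 0.05). Hars, the histidine enzyme, had the highest value of the tested cytosolic members, 0.13 ± 0.07, with 130.0 to 139 CPM in control and 129 to 157 CPM in RGX-104. The aspartate enzyme Dars (0.10), the glutamine enzyme Qars (0.10), the alpha subunit of the phenylalanine enzyme Farsa (0.10) and the methionine enzyme Mars1 (0.06) were also above 0. The isoleucine enzyme Iars (-0.06), the tryptophan enzyme Wars (-0.08) and the beta phenylalanine subunit Farsb (-0.08) were below 0.

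For most of these genes the data set a bound. The 95% interval of the log2 fold change lay above -0.22, the size of the Eprs fall, in 8 of the 10. The exceptions were Wars, with an interval from -0.25 to 0.09, and Farsb, with one from -0.40 to 0.24. Farsb was at 16.3 to 27.4 CPM in control and at 19.1 to 24.6 CPM in RGX-104, and its symbol is repeated in the table with a number appended, so its level is uncertain. The end of Mars1 overlaps by 68 bp the end of Ddit3, which lies on the opposite strand and encodes the stress factor CHOP. Ddit3 had a log2 fold change of -1.97, while Mars1 was at 178 to 196 CPM in control and at 179.5 to 204 CPM in RGX-104.

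Vars and Yars give no comparison. Vars, the valine enzyme, was listed at 0 in all 8 libraries, and Yars, the tyrosine enzyme, had 12, 7, 15 and 0 counts in control and 0, 0, 17 and 1 in RGX-104. The table lists Vars again under 3 and Yars again under 1 numbered symbol, all without counts. Since T cells need both enzymes to make protein, these entries are not read as absence of expression.

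Grouped by known biochemistry, the members that fell were spread over several classes. Synthetases are divided into class I and class II by the fold of their catalytic domain: 2 of 7 tested cytosolic class I genes fell (Cars, Lars) and 5 of 10 class II genes (Aars, Gars, Nars, Sars, Tars), and Eprs holds a domain of each class. Of 9 tested genes for amino acids that mammals can make (arginine included), 6 fell, with a median log2 fold change of -0.32 over the 9. Of 9 for dietary essential amino acids, 2 fell, Lars and Tars, and the median was -0.06. Of 8 genes whose proteins sit in the cytosolic multi-synthetase complex, 2 fell, Eprs and Lars, with a median of 0.04. Of 10 tested genes outside it, 6 fell, with a median of -0.33. These are counts over few genes, in groupings chosen with earlier results known, and no difference between classes was tested.

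**Figure D2:**
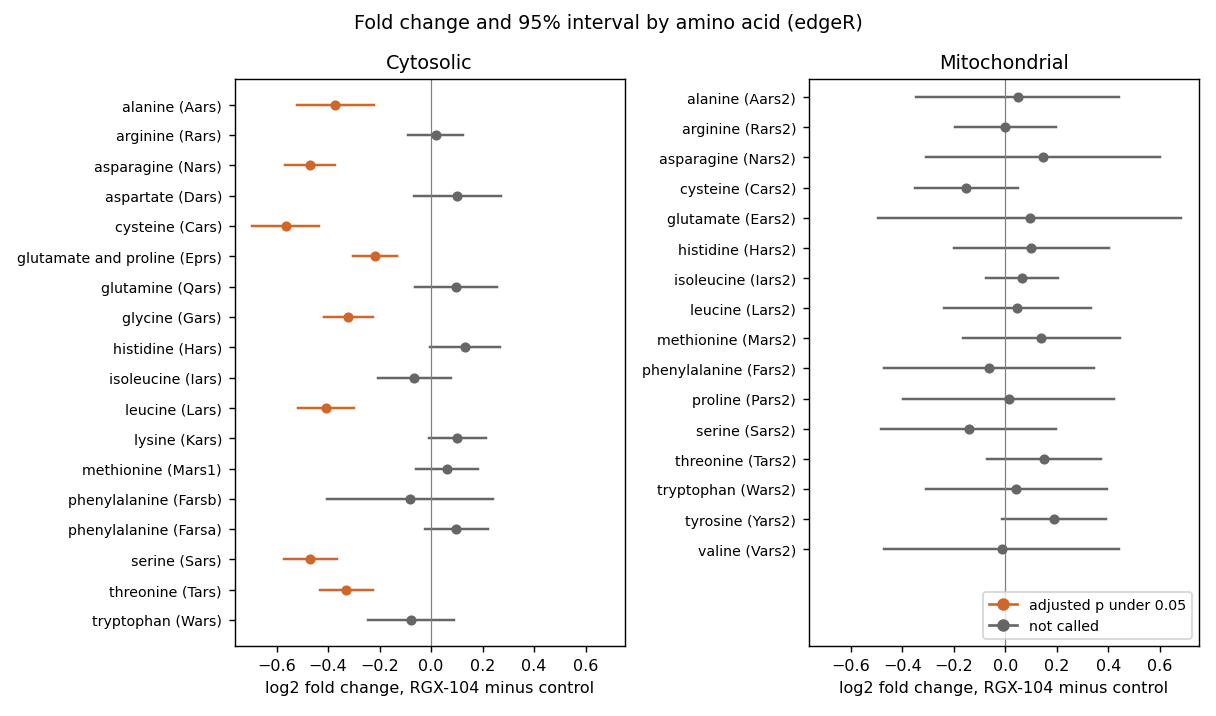
Log2 fold change (RGX-104 minus control; point) with its 95% interval (line) for each tested synthetase, by amino acid, cytosolic genes left and mitochondrial genes right; orange marks an adjusted p under 0.05. The 8 called genes are all cytosolic and negative, and the mitochondrial intervals, wider on the whole, all include 0.

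Mitochondrial synthetases charge the tRNAs encoded by mitochondrial DNA and so serve the proteins of the respiratory chain made there. With edgeR, limma-voom and DESeq2 alike, 0 of the 16 were called, and before adjustment 0 of the 16 had a p under 0.05. Of all genes tested, edgeR called 2.66% in either direction and gave 13.8% a p under 0.05 before adjustment, so a count of 0 among 16 genes does not set these members apart. Their log2 fold changes ran from -0.15 to 0.19, with 12 above 0 and 4 below. The highest was Yars2, the tyrosine enzyme, at 56.5, 46.0, 62.3 and 56.0 CPM in control and at 71.3, 57.4, 62.3 and 60.7 CPM in RGX-104 (0.19 ± 0.10; edgeR adjusted p = 0.403). The lowest was Cars2, the cysteine enzyme, at 48.3, 58.0, 54.3 and 58.0 CPM in control and at 51.1, 42.3, 52.1 and 51.3 CPM in RGX-104 (-0.15 ± 0.10; edgeR adjusted p = 0.518). In both genes the groups overlapped. Iars2, the isoleucine enzyme and the one with the smallest error, was at 100.4 to 114 CPM in control and 107 to 120.3 CPM in RGX-104 (0.07 ± 0.07). Exons of Iars2 overlap those of Rab3gap2 over 2034 bp, and exons of Cars2 overlap those of Naxd over 422 bp, on opposite strands. The strand setting of the counts is not given, so reads of these pairs may not be fully separated.

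Counts of the mitochondrial members were lower, and their errors larger. Mean control levels were 5.61 to 109.7 CPM, against 23.2 to 938 CPM for the tested cytosolic genes, and standard errors of the log2 fold change were 0.07 to 0.28 against 0.04 to 0.16. The 95% interval reached a fall as large as that of Eprs in 10 of 16 mitochondrial members and a fall of 0.39, the median of the 8 called genes, in 5 of 16 (Ears2, Fars2, Pars2, Sars2 and Vars2). For these 5 a fall of that size is not excluded, and the level of Vars2 is uncertain because the table lists its symbol again under 2 numbered entries. In 11 of 16 the interval lay above it.

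Summed over the 20 cytosolic genes, the level was 5445 to 5665 CPM in the control libraries and 4754 to 4935 CPM in the RGX-104 libraries, and these ranges did not overlap. Summed over the 16 mitochondrial genes it was 450.1 to 469.6 and 458 to 489.5 CPM, which overlapped. The cytosolic sum includes the genes called lower, so its fall restates theirs and is no separate result for the compartment. In bulk RNA of a sorted population, less RNA per cell and fewer cells that make it cannot be told apart.

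Whether the change differed between the compartments was tested amino acid by amino acid, with the ratio of the cytosolic to the mitochondrial count inside each library, which does not depend on library scaling. Of 15 pairs with both genes tested, 11 had a lower mean ratio in RGX-104. Every pair whose cytosolic gene was called lower is among these 11, so the count in part restates the calls. Eprs is in the glutamate and the proline pair, and Fars2 in both phenylalanine pairs, so the pairs are not all separate. The groups were apart in 3 pairs, those for cysteine, leucine and threonine, whose cytosolic genes were all called. The log2 ratio of Tars to Tars2 went from 3.27 ± 0.13 to 2.79 ± 0.15 (SD, n = 4 per group; difference -0.48), that of Lars to Lars2 from 4.35 ± 0.14 to 3.90 ± 0.22 (difference -0.46), and that of Cars to Cars2 from 1.32 ± 0.16 to 0.91 ± 0.12 (difference -0.41). Each gave an exact two-sided permutation p of 0.0286, the smallest that 4 against 4 libraries allows, and 0.143 after adjustment over the 15 pairs.

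With 4 libraries a group, the adjusted threshold could be passed only if at least 9 of the 15 pairs reached the smallest exact p, and 3 did. That 0 of 15 passed therefore says nothing for or against a difference between compartments, and the ratios are given by their size and spread. The asparagine pair had the largest difference of means, -0.65, with overlapping groups (exact permutation p = 0.0857), and its mitochondrial gene Nars2 was at only 5.299 to 9.82 CPM. The alanine pair differed by -0.44 (exact permutation p = 0.0571) and the serine pair by -0.31 (exact permutation p = 0.143). The arginine pair, of which neither gene was called, was the closest to no change among the pairs with small errors, at 2.99 ± 0.10 and 3.01 ± 0.06 (exact permutation p = 0.743).

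**Figure D3:**
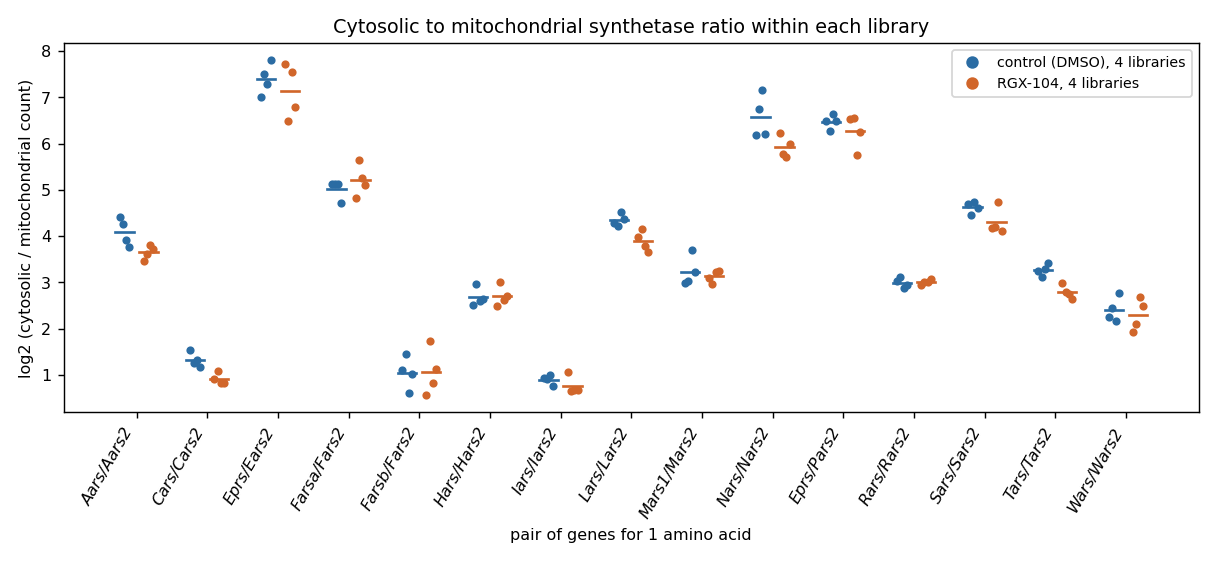
Log2 ratio of the cytosolic to the mitochondrial synthetase count (0.5 added to each) within each of the 8 libraries for 15 pairs; points are libraries (control blue, RGX-104 orange), bars group means. The orange points lie wholly below the blue ones for Cars/Cars2, Lars/Lars2 and Tars/Tars2.

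Other genes of tRNA supply were examined as lists. The scaffold of the multi-synthetase complex consists of Aimp1, Aimp2 and Eef1e1, whose log2 fold changes were 0.05, 0.06 and 0.18, none of them called. The second threonine enzyme Tarsl2, which was not in the set, had -0.06. Of 21 tested genes of tRNA export, end processing and splicing, 45 of tRNA modification and 24 of RNA polymerase III and its factors, which transcribe tRNA genes, 0 were called in either direction. The median log2 fold changes of these 3 lists were 0.04, 0.05 and 0.01. Over all 8 lists of tRNA supply, 0 of 110 tested genes were called by edgeR, DESeq2 or limma-voom, against 2.66% of all genes in edgeR. An unadjusted p under 0.05 was found for 13 of the 110 by edgeR, 2 of them lower, beside 13.8% of all genes. Standard errors of the log2 fold change over the 110 genes were 0.05 to 0.32. In simulated data the edgeR test called 34% of log2 changes of 0.3 and 70% of changes of 0.5. Changes were given there only to genes above a minimum mean count. Some of the 110 genes, such as Adat3, lay below that minimum, so these shares do not cover them. Changes as large as the synthetase falls can therefore have been missed in these lists.

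In the list of uncharged tRNA sensing and the ATF4 arm, transcripts of sensor genes and of response genes differed in their calls. Kinase activity was not measured, and whether the response genes changed through this sensor was not tested. The kinase gene Eif2ak4 was at 34.6, 31.6, 38.1 and 30.6 CPM in control and at 34.7, 33.6, 31.9 and 39.0 CPM in RGX-104, and neither it nor its activator Gcn1 or the inhibitor Impact was called (log2 fold changes 0.04, 0.04 and 0.11). Of 9 tested genes of this list, 6 fell and 0 rose, beside 1.78% and 0.888% of all genes: Atf4, Ddit3, Trib3, Asns, Chac1 and Sesn2. Atf4 was at 793, 666, 725 and 684 CPM in control and at 467, 436, 464 and 497 CPM in RGX-104, a log2 fold change of -0.62 ± 0.06. Asns, which makes asparagine, the amino acid that Nars loads, had -0.91 ± 0.14. The log2 fold changes of these 6 genes, -2.84 to -0.62, were all larger falls than the -0.56 of Cars, by little in the case of Atf4, and that difference was not tested. This list was chosen with its earlier results known, so its direction is not independent evidence. Whether the synthetase transcripts followed Atf4 was not tested.

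**Figure D4:**
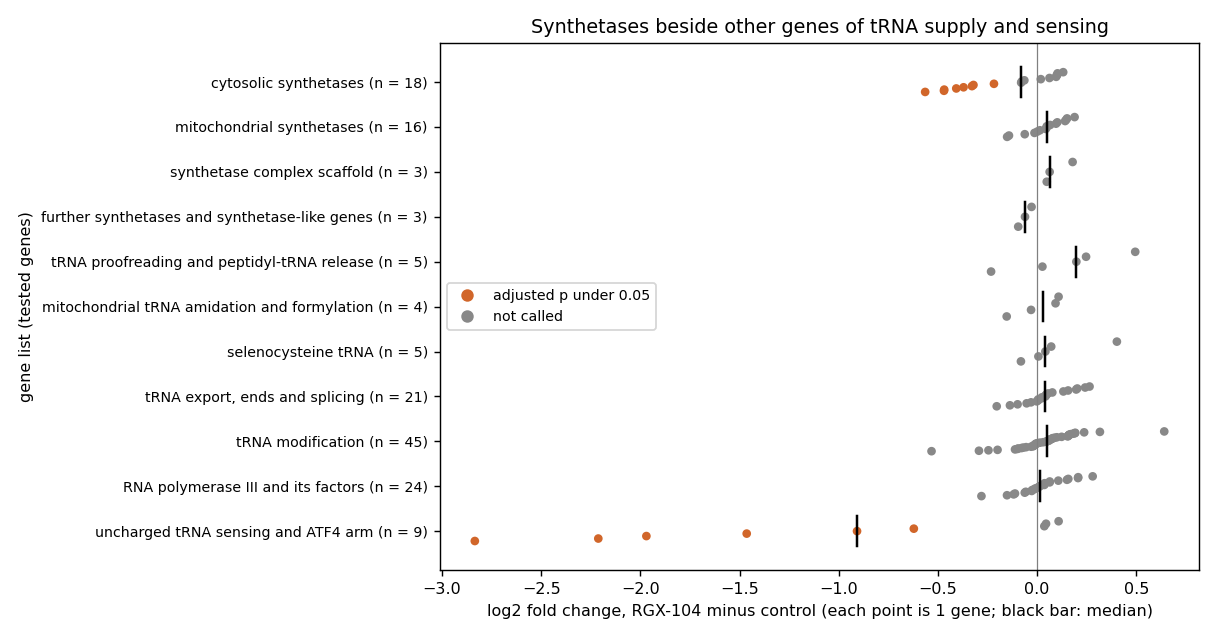
Log2 fold change (RGX-104 minus control) of every tested gene in the synthetase groups and the lists of tRNA supply and sensing; each point is 1 gene, black bars are medians, and orange marks an adjusted p under 0.05. Called genes appear among the cytosolic synthetases (8 of 18) and in the sensing and ATF4 list (6 of 9), and in none of the other lists.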

How the data were processed

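The authors deposited raw counts of reads for each gene, 1 column per library, from 3′-end libraries. The submitters' processing notes name STAR 2.7.8a, R 4.1.0, DESeq2 1.4 and build GRCm38. How reads were assigned to genes, with which strand setting and what treatment of reads with several positions, is not given in the sources used. No column belonged to another series (0 columns). Differences were tested by edgeR 4.0.16 under R 4.3.3 on all 8 libraries (filterByExpr, TMM, two-sided quasi-likelihood test, with no term but group). P-values were adjusted by Benjamini-Hochberg over 12162 genes at a threshold of 0.05, and the method was tested on simulated data. A standard error is the log2 fold change divided by the square root of F. Intervals (95%) use the moderated degrees of freedom. CPM use TMM-scaled library sizes. Within-library ratios, with 0.5 counts added, were compared by exact two-sided permutation over samples. Alternatives used DESeq2 1.42.0 and limma-voom (limma 3.58.1). Pairs of libraries of a group differed by 6.52 to 10.0 times counting noise. This does not show whether they came from separate cultures or mice, and each library was counted once. Counts carry no stated molecular identifiers. Entries repeating a symbol numbered 2339, holding 0.0164% of counts. Exons of 10 of 36 members overlap another gene's by at least 100 bp in GENCODE M21. Every called member was described, and the others by range; 1 further gene of the fixed rule is not reported here. Members, lists and motifs were chosen with earlier results of these data known.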

Additional observations from a re-analysis of the deposited data

Results flagged for a closer look

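Within groups of 4 libraries, 1 library stood far from the other 3 (gap over range above Dixon's 95% limit) in 3 of 68 gene and group combinations and in 6 of 98 with the ratios included, where chance gives about 1 in 20. The Aars level of RGX-104 replicate 6 was 131 CPM, beside 151 to 153 CPM in the other 3. Without that replicate the log2 fold change of Aars was -0.32 (edgeR adjusted p = 0.0318, with 8.74e-05 to 0.0318 over its alternatives). Cars2 in the same replicate was at 42.3 CPM, beside 51.1 to 52.1 CPM. Sars2 in RGX-104 replicate 7 was at 10.8 CPM, beside 15.7 to 16.7 CPM, and the log2 ratio of Sars to Sars2 there was 4.75, beside 4.11 to 4.20. The log2 ratio of Farsa to Fars2 was 4.73 in control replicate 4, beside 5.12 to 5.14. The log2 ratio of Iars to Iars2 was 1.07 in RGX-104 replicate 5, beside 0.66 to 0.67.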

How the results depend on the processing

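All 8 called synthetases were lower with an adjusted p under 0.05 in each of 14 alternatives (DESeq2, limma-voom, DESeq2 size factors or total counts in edgeR, no filter on low counts, repeated symbols left out, and each of 8 libraries left out), with log2 fold changes of -0.58 to -0.21 and a largest adjusted p of 0.0318. No cytosolic member was called higher and no mitochondrial member either way in any of them. The median log2 fold change of all genes stayed between -0.0020 and 0.0068. Over all genes, DESeq2 called 190 higher genes against 108. Leaving out 1 library gave 57 to 93 higher genes (57 without control replicate 2, 58 without control replicate 3, 60 without RGX-104 replicate 8, 61 without RGX-104 replicate 7, 65 without RGX-104 replicate 6 and 66 without control replicate 1) and 144 to 211 lower ones. The cause was not tested. Of 26 uncalled members, 11 changed sign in some alternative, none with a call. Leaving out 1 library at a time gave log2 fold changes of -0.22 to 0.011 for Farsb, -0.0035 to 0.048 for Rars, -0.095 to 0.17 for Aars2, -0.15 to 0.26 for Ears2, -0.17 to 0.084 for Fars2, -0.017 to 0.14 for Lars2, -0.00066 to 0.28 for Nars2, -0.19 to 0.11 for Pars2, -0.038 to 0.052 for Rars2, -0.20 to 0.11 for Vars2 and -0.043 to 0.15 for Wars2. With limma-voom, Pars2 had -0.011, Rars2 -0.00050 and Vars2 0.0011. Adding 5 counts in place of 0.5, or taking pairs with at least 1 count in every library, gave 0 of 15 ratios past the adjusted threshold, as with 0.5, which the smallest exact p makes near certain and which is no sign of stability. No paired analysis was run, because the groups share no replicate numbers and the labels do not say whether libraries were paired.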
